A study of Mus musculus with 9 samples.

Results

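The genes described here encode the aminoacyl-tRNA synthetases, the enzymes that join each amino acid to its transfer RNA (tRNA). The list holds 35 mouse genes, 20 for cytosolic enzymes and 15 for mitochondrial ones, whose symbols end in 2. The list was drawn up with earlier results of these data known. Every probe that its RefSeq accession assigned to any of the 35 genes was taken. Where an accession gave no gene, the symbol in the annotated tables or a unique synonym was used. The signals of these probes were read from the arrays. On the platform of the Wdr5 comparison 33 of the 35 genes had a probe (55 of 25697 probes), with none for Cars2 and Tars2. On the platform of the Oct4 comparison 33 genes had one as well (64 of 46643 probes), with none for Eprs and Iars2. A gene was measured when at least 1 of its probes passed the filter, a deposited detection score over 0.95 on 2 or more arrays. This left 30 members in the Wdr5 comparison, without Cars, Hars and Yars2, and 26 in the Oct4 comparison, without Hars, Iars, Aars2, Lars2, Pars2, Wars2 and Yars2.

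The study measured RNA of mouse embryonic stem (ES) cells on 9 Illumina beadchips. The Wdr5 knockdown (3 arrays) is a single rescue clone named Wdr5R4, sampled without doxycycline, in the Aniv15 line, which carries the tetracycline-responsive transactivator rtTA. Its control (2 arrays) carries a luciferase construct, LucR, and was sampled with doxycycline, so that clone, construct and doxycycline differ together between these groups and their parts cannot be told apart. The Oct4 knockdown (2 arrays) carries an shRNA against Oct4, whose gene is Pou5f1, and its control (2 arrays) an shRNA against GFP, a protein mouse cells lack. The cells of this second pair were CCE or E14T, and the labels do not say which. All 4 groups grew on fibroblast feeders with the cytokine LIF. The growth text lists doxycycline for every sample, which goes against the titles of the Wdr5 knockdown samples. The labels do not say whether replicates came from separate cultures, so p-values measure only the spread between these arrays.

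Each synthetase recognises its amino acid and the matching tRNAs, and the charged tRNAs then feed the ribosome. In animal cells 8 of the cytosolic enzymes (encoded by Eprs, Iars, Lars, Mars, Qars, Rars, Kars and Dars) are held in one particle, the multisynthetase complex, by the scaffold proteins encoded by Aimp1, Aimp2 and Eef1e1. Most mitochondrial enzymes are encoded by a separate nuclear gene, while Gars and Kars each encode the enzyme of both compartments. Many synthetase genes are known targets of ATF4, the transcription factor of the amino acid response, which binds with C/EBP partners to elements that contain the letters TGATGNAA.

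Because of that link the promoters were read first. RefSeq promoter windows of build GRCm38.p6, from 250 bases before to 50 after a transcript start, were available for 27 of the 35 members (28 windows). For Aars and Yars this start lies inside the gene, whose first base is at chr8:111027778 and chr4:129189734. The letters TGATGNAA, searched on both strands with N as any base, stood in the windows of 5 members (5 of 28 windows), against 3.97% of all 32851 windows. Those members were Aars, Gars, Iars, Tars and Yars, all cytosolic, and Aars held the letters at 2 places. A match of letters is a description and says nothing of binding. The 6 stretches below run from 120 bases before the start to the 20th base of the transcript, 5′ to 3′ on the gene's strand, with the matches in capitals. Aars, Gars, Tars, Iars and Yars are shown for their matches, and Dars for its lower signal in both knockdowns, with no match in its window.
Aars, chr8:111033722-111033861, plus strand: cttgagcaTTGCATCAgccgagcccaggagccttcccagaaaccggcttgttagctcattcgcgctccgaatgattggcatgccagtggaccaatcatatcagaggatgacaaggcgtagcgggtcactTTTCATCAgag
Gars, chr6:55037881-55038020, plus strand: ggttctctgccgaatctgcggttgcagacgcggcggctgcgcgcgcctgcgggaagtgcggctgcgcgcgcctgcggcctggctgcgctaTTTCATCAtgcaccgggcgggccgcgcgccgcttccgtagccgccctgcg
Tars, chr15:11399639-11399778, minus strand: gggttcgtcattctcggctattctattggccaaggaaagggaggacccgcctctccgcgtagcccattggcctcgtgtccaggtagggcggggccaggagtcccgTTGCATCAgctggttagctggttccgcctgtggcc
Iars, chr13:49682010-49682149, plus strand: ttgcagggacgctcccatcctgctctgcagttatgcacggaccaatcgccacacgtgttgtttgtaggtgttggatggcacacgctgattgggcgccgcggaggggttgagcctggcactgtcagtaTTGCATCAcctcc
Yars, chr4:129189783-129189922, plus strand: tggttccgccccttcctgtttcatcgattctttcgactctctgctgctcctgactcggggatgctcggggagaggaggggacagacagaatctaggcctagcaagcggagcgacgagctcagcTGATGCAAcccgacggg
Dars, chr1:128417397-128417536, minus strand: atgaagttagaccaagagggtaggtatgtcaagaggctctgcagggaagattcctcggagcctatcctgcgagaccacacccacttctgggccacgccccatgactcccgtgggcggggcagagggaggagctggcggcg

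Signals were background-corrected, normalized by quantiles within each comparison and put on a log2 scale, and groups were compared with limma over all measured genes (adjusted p under 0.05, Benjamini-Hochberg). Each gene is represented by its brightest kept probe, and levels are never compared between probes. The targets of the knockdowns were lower: Wdr5 averaged 8.97 ± 0.06 (SD, n = 3) on the Wdr5 knockdown arrays and 9.93 ± 0.05 (SD, n = 2) on the luciferase arrays, and Pou5f1 averaged 9.24 ± 0.05 on the Oct4 knockdown arrays and 11.52 ± 0.11 on the GFP arrays (SD, n = 2 each). Mean deposited intensities were 375 to 429 on the Wdr5 knockdown arrays and 448 to 518 on the luciferase arrays, but 110 to 111 on the Oct4 knockdown arrays and 278 to 344 on the GFP arrays. Every measured ES cell marker was above background on all control arrays, and these markers fell widely: 11 of 12 measured in the Wdr5 knockdown and 8 of 9 in the Oct4 knockdown were called lower, and none was called higher. Fgf4 was above background on no Wdr5 knockdown array and passed the filter only through the luciferase arrays, so its call is no support. Among all genes 30.5% were called lower in the Wdr5 comparison and 18.1% in the Oct4 comparison. Feeder fibroblast markers mostly moved the other way in the Wdr5 comparison. There 13 of 16 measured were called higher and 2 lower, beside 38.2% and 30.5% of all genes. Their summed linear signal was 10965 to 11288 on knockdown arrays against 3858 to 3914 on luciferase arrays, and Dcn, Lox and S100a4 were not above background on any luciferase array. These 3 genes passed the filter only through the knockdown arrays, where they were high, so their calls are no support for a rise. In the Oct4 comparison only 5 of the 20 listed markers were measured. Of these 2 were called higher, Pdgfra and Cav1, and none lower, beside 24.3% and 18.1% of all genes. The summed signal was 777 to 816 on Oct4 knockdown arrays against 349 to 483 on GFP arrays, and Fbn1 and Cav1 were not above background on either GFP array. Cav1 thus passed the filter only through the Oct4 knockdown arrays, and its call is no support either. The part that the mix of cells, the dimmer Oct4 knockdown arrays and doxycycline had in the synthetase results was not tested. Fewer cells of a type and less RNA per cell cannot be told apart in these bulk samples.

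After Wdr5 knockdown the synthetase genes split, with more of them lower than higher. Of the 30 measured members 16 were called lower, 7 higher and 7 were not called, and the median log2 fold change was -0.33. The background was wide: 68.7% of the 10119 genes tested were called (38.2% higher and 30.5% lower), with a median of 0.10 on the same scale, so that the members' share of calls, 76.7%, lay near that of all genes while their share of lower calls was 53.3%. Values on the knockdown arrays did not overlap those on the luciferase arrays for 23 of the 30 members, against 79.1% of all genes. Only 6 of the called members differed by 2-fold or more, 2 lower (Eprs and Dars) and 4 higher (Farsa, Aars2, Sars2 and Wars2).

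**Figure D1:**
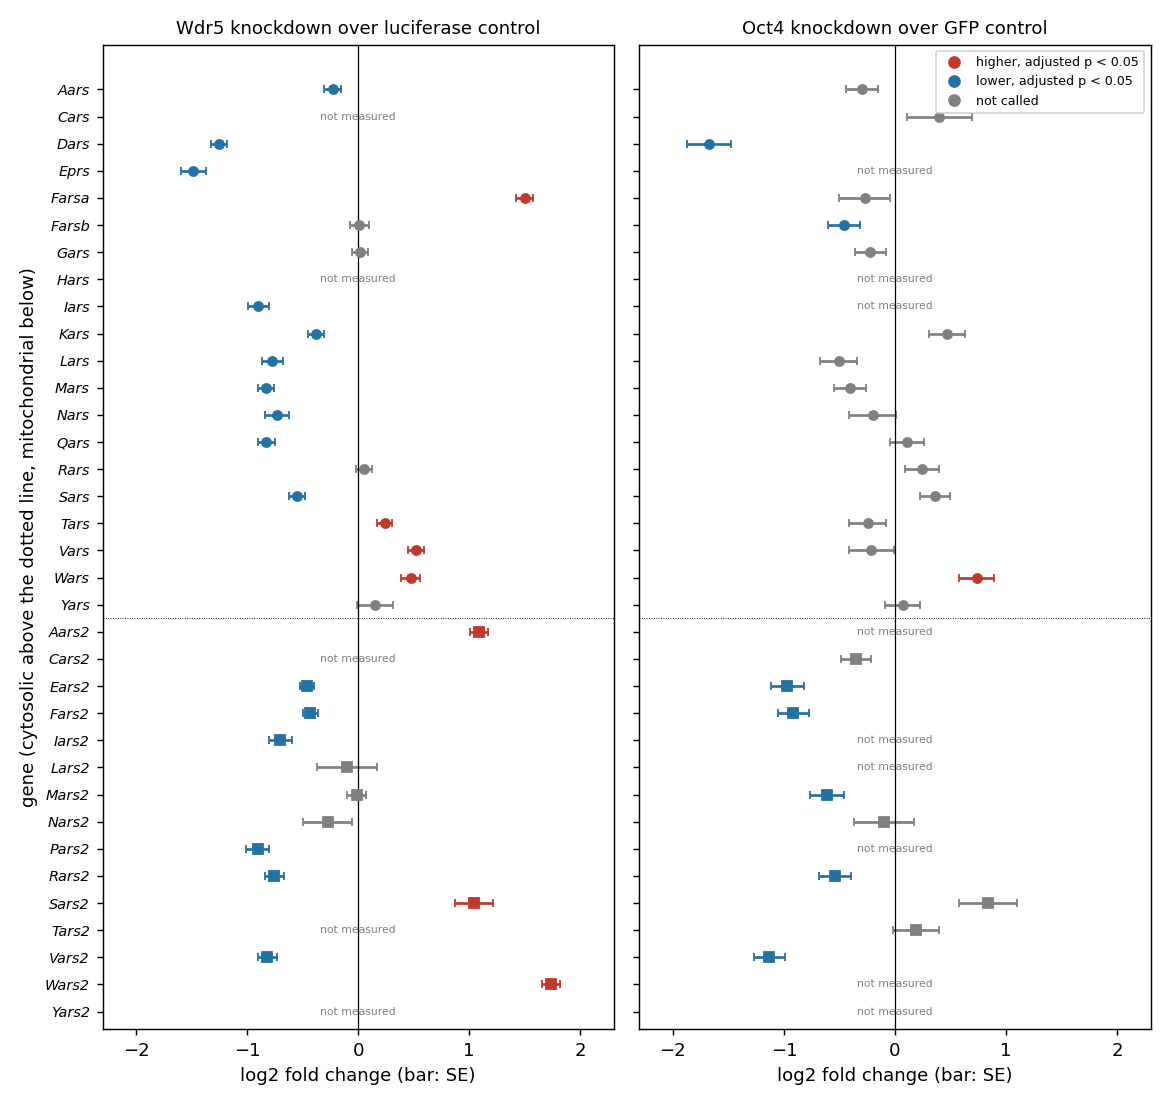
Log2 fold changes of all 35 synthetase genes (horizontal axis, bars are SE), Wdr5 knockdown over luciferase control on the left and Oct4 knockdown over GFP control on the right, with cytosolic genes (circles) above the dotted line and mitochondrial ones (squares) below it. On the left the calls run from Eprs at -1.48 to Wars2 at 1.74, and on the right Dars lies lowest at -1.68 and 18 of 26 measured genes are grey, not called.

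The cytosolic enzymes of the multisynthetase complex account for most of the lower calls among cytosolic genes. Of its 8 genes 7 were called lower and none higher, with a median log2 fold change of -0.83, while of the 10 other measured cytosolic genes 3 were called lower and 4 higher, with a median of 0.09. This grouping was made with the results known and was not tested. Eprs, whose product charges both glutamate and proline tRNAs, had deposited intensities of 358, 286 and 337 on the knockdown arrays against 966 and 1276 on the luciferase arrays. All 3 knockdown arrays lay far below both controls, and the normalized signal was 2.80-fold lower (log2 fold change -1.48 ± 0.11 SE, limma adjusted p = 0.000111).

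Dars, the aspartate enzyme, had intensities of 2613, 2480 and 2343 on the knockdown arrays against 6273 and 6984 on the luciferase arrays. It was 2.38-fold lower (log2 fold change -1.25 ± 0.07 SE, limma adjusted p = 4.09e-05). Iars, the isoleucine enzyme, read 1763, 1527 and 1310 against 3106 and 3247 on the luciferase arrays. Qars, for glutamine, read 2998, 2741 and 2367 on knockdown arrays against 5142 and 5751, and Mars, for methionine, 248, 233 and 204 against 486 and 551. In these 3 genes, too, no knockdown array reached a control. After normalization Iars was 1.87-fold lower, Mars 1.78-fold and Qars 1.77-fold, with limma adjusted p-values of 0.000382, 0.000178 and 0.000245.

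Of the rest of the complex, Lars (leucine) had a log2 fold change of -0.77 and Kars (lysine) one of -0.38, both called lower. The Kars call was lost when arrays were scaled to a common median over kept probes (log2 fold change -0.16, limma adjusted p = 0.0818). Rars, the arginine enzyme, was the member of the complex whose brightest probe was not called (log2 fold change 0.05 ± 0.08 SE), although a second Rars probe, also above background on all 5 arrays, was lower by a log2 fold change of -0.74. The scaffolds gave lower signals as well: Aimp1 had a log2 fold change of -1.36, Eef1e1 of -0.97 and Aimp2 of -0.64, and all 3 were called. Counted together, 10 of the 11 genes for enzymes and scaffolds of the complex were called lower and none higher, beside the 30.5% lower calls among all genes.

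**Figure D2:**
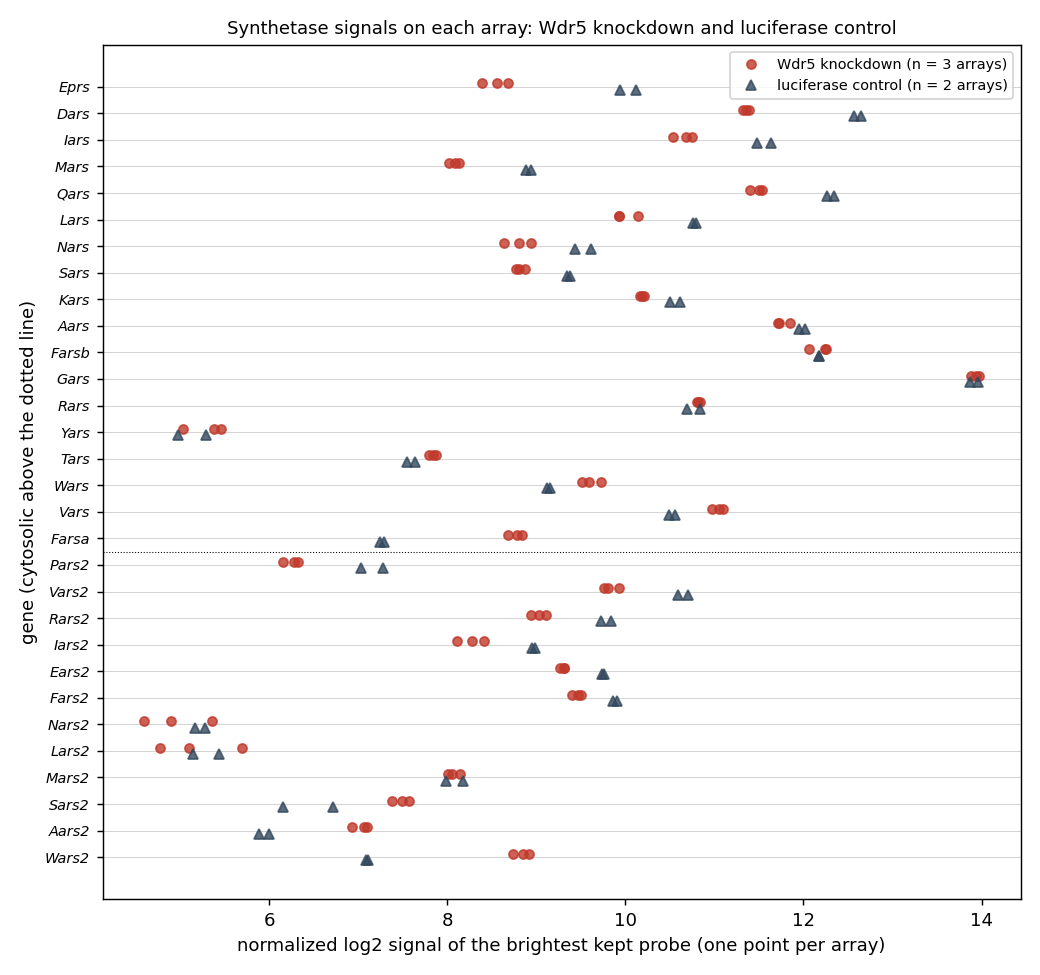
Normalized log2 signal (horizontal axis) of each measured synthetase gene on each Wdr5 knockdown array (red circles, n = 3) and luciferase control array (dark triangles, n = 2), with cytosolic genes above the dotted line and each block sorted by fold change. Points of the groups lie apart for 23 of 30 genes, with Eprs at 8.39 to 8.68 against 9.94 to 10.12 at the lower end and Wars2 at 8.74 to 8.92 against 7.09 to 7.11 at the upper end.

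Cytosolic enzymes outside the complex went both ways. Farsa, the catalytic subunit of the cytosolic phenylalanine enzyme, rose more than any other cytosolic member: its intensities were 426, 359 and 379 on the knockdown arrays against 148 and 182 on the luciferase arrays. The normalized signal was 2.83-fold higher (log2 fold change 1.50 ± 0.08 SE, limma adjusted p = 3.41e-05). Farsb, the other subunit of the same enzyme, had a log2 fold change of 0.01 ± 0.09 SE by its brightest probe and was not called, while its second probe was called lower (-0.49). Vars (valine) and Wars (tryptophan) were called higher with log2 fold changes of 0.52 and 0.47, though not by every probe. Nars (asparagine) and Sars (serine) were called lower at -0.73 and -0.55.

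The smallest calls among the cytosolic genes did not hold when single arrays were left out or arrays were scaled otherwise. Aars (alanine) had a log2 fold change of -0.23 and limma adjusted p = 0.0402. Without knockdown replicate 2 or 3 it had -0.21 each time, without luciferase replicate 1 it had -0.26 and without replicate 2 -0.19, and none of these was called. Scaling to a common median over all probes (-0.19) or kept probes (-0.02) ended the Aars call as well. Tars (threonine), at 0.24 with limma adjusted p = 0.0255, lost its call without knockdown replicate 1 (0.22), knockdown replicate 2 (0.24) or luciferase replicate 1 (0.19), and when scaled to a common median over all probes (0.09). Gars (glycine) was at 0.02 and Yars (tyrosine) at 0.16, neither called, and the dim Yars probe was above background on only 2 of 3 knockdown arrays and 1 of 2 luciferase arrays. The 5 genes whose promoter windows hold TGATGNAA thus comprised 2 called lower (Iars, Aars), 1 called higher (Tars) and 2 not called (Gars, Yars). Among all genes 30.5% were called lower and 38.2% higher, and the calls of Aars and Tars did not hold under the alternatives above. A link between these letters and the signals was not tested.

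Mitochondrial synthetase genes gave the highest fold change of the list and more lower than higher calls: of 12 measured, 3 were called higher, 6 lower and 3 not called, with a median log2 fold change of -0.35, beside 38.2% higher and 30.5% lower calls among all genes. Wars2, the mitochondrial tryptophan enzyme, had intensities of 412, 403 and 403 on the knockdown arrays against 132 and 160 on the luciferase arrays. Its normalized signal was 3.33-fold higher (log2 fold change 1.74 ± 0.08 SE, limma adjusted p = 2.51e-05). Aars2, for alanine, read 99.4, 103 and 95.1 on the knockdown arrays against 49.4 and 65.7 on the luciferase arrays, and was 2.13-fold higher (limma adjusted p = 0.000126). Sars2 read 144, 151 and 134 against 100.2 and 75.0 and was 2.06-fold higher, with its 2 luciferase arrays further apart than those of the other named genes (6.44 ± 0.40 on the log2 scale, SD, n = 2; limma adjusted p = 0.00253).

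Pars2, the mitochondrial proline enzyme, lay at the other end, at 58.1, 45.5 and 48.5 on the knockdown arrays against 127 and 179 on the luciferase arrays. It was 1.87-fold lower by this probe (limma adjusted p = 0.00054), while a second Pars2 probe, at -0.28, was not called. The other lower calls were Vars2 (log2 fold change -0.82), Rars2 (-0.76), Iars2 (-0.70), Ears2 (-0.46) and Fars2 (-0.43), and all 3 kept Rars2 probes were called lower, between -0.58 and -0.82. Mars2, Lars2 and Nars2 were not called, at -0.01, -0.10 and -0.27, and Lars2 and Nars2 were each below background on at least 1 knockdown array.

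For 9 amino acids both the cytosolic and the mitochondrial gene were measured under symbols that differ only by the final 2. In 3 of these pairs both genes were called in opposite directions: Aars at -0.23 and Aars2 at 1.09, Sars at -0.55 and Sars2 at 1.04, and Vars at 0.52 and Vars2 at -0.82. In 2 pairs both went the same way, Iars with Iars2 (-0.90 and -0.70) and Wars with Wars2 (0.47 and 1.74). In the remaining 4 pairs at least 1 gene was not called. The difference within a pair was not itself tested.

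Probes of one gene did not always give the same answer, and 11 measured members had several kept probes in the Wdr5 comparison. For 2 of them kept probes were called in opposite directions, as for 14.3% of the 2505 genes with several kept probes. The brightest Wars probe read 727, 769 and 660 on the knockdown arrays against 549 and 661 on the luciferase arrays and was called higher. A second one read 184, 135 and 140 against 239 and 309 and was called lower (-0.43), as were the remaining 2 Wars probes (-0.58 and -1.32). The dimmer of these was above background on the 2 luciferase arrays only. Vars had 2 bright probes that were called higher (0.52 and 0.28), of which the brightest read 2170, 2063 and 1776 against 1467 and 1655. The dimmest Vars probe read 3.1, 9.5 and 0.5 on the knockdown arrays, all below background, against 49.4 and 79.1 on the luciferase arrays. It was called lower (-1.36), but like the dimmest Wars probe it passed the filter only through the luciferase arrays, where it was high. Neither call is thus support for a lower signal. Vars counts among the 2 genes with opposite calls only through this probe. With the mean over kept probes in place of the brightest one, Wars had a log2 fold change of -0.46, Vars of -0.19, Rars of -0.35 and Farsb of -0.24, each with the sign turned. The means of Wars and Vars include these dimmest probes.

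Dars is the case where probes shared a direction but not a size. Beside the brighter probe, a second one read 133, 123 and 119 on the knockdown arrays against 2068 and 2502 on the luciferase arrays, a log2 fold change of -3.76. Sars likewise had a second probe at -1.37, lower than the brightest one at -0.55. Both Dars probes are annotated to the same RefSeq accession. In the authors' deposited table the log2 fold changes were -1.26 and -2.55 for these Dars probes, -1.04 for the brightest Eprs probe, 0.74 for Farsa and 0.84 for the Wars2 probe used here.

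**Figure D3:**
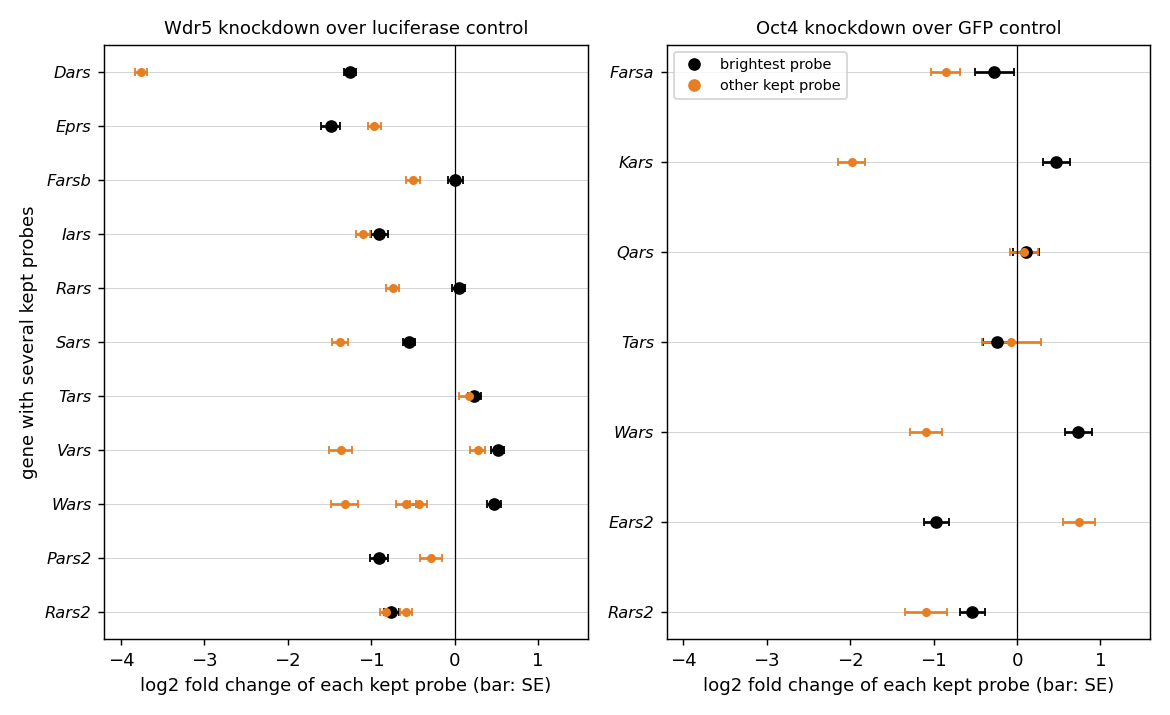
Log2 fold change (horizontal axis, bars are SE) of every kept probe of the genes with several, with the brightest probe in black and the others in orange, for the Wdr5 comparison on the left and the Oct4 comparison on the right. Probes of Wars fall on both sides of 0 in both panels, those of Vars, Rars and Farsb do so on the left and those of Ears2 and Kars on the right, and the second Dars probe on the left lies at -3.76.

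Genes that work beside the synthetases were taken from lists chosen by function. Of 11 measured genes for other charging and editing proteins 3 were called higher and 5 lower after Wdr5 knockdown, beside 38.2% and 30.5% of all genes. Of those called lower 2 were above background on no knockdown array. They passed the filter only through the luciferase arrays, where they were high, so their calls are no support for lower signals. Dtd1, a deacylase that removes D-amino acids from tRNA, had a log2 fold change of -1.76, Gatb, a subunit of the mitochondrial glutamyl-tRNA amidotransferase, one of 1.05 and Prorsd1 one of -0.89. Of 14 measured genes of tRNA supply and delivery 10 were called higher and 3 lower, beside 38.2% and 30.5% of all genes. The largest were 3 subunits of TFIIIC, a factor that brings RNA polymerase III to tRNA genes, Gtf3c6 (1.72), Gtf3c2 (1.18) and Gtf3c1 (1.15), and Brf1 (1.30), a subunit of TFIIIB.

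Of 13 measured genes of the amino acid response 4 were called higher and 6 lower, beside 38.2% and 30.5% of all genes, with a median log2 fold change of -0.13. Trib3, a pseudokinase induced by ATF4, had a log2 fold change of -1.28, asparagine synthetase (Asns) -1.05, and Nupr1 -1.04. The glutathione-degrading enzyme Chac1 averaged 8.35 ± 0.04 (SD, n = 3) on the knockdown arrays and 9.35 ± 0.12 (SD, n = 2) on the luciferase arrays on the log2 scale. Those called higher were Ppp1r15a (0.94), Ddit4 (0.93), Myc (0.62) and Cebpg (0.49), named here to complete the count. Myc was above background on no luciferase array and passed the filter only through the knockdown arrays, so its call is no support for a rise. Cebpg was above background on only 1 of 2 luciferase arrays. Atf4 itself was not called, at 0.09 (limma adjusted p = 0.279).

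After Oct4 knockdown fewer synthetase genes passed the test, and most calls were lower. Of 26 measured members 7 were called lower, 1 higher and 18 were not called, with a median log2 fold change of -0.23. The background was 42.4% of 9277 genes (24.3% higher and 18.1% lower) with a median of -0.02, so that the members' 30.8% lay under it, with 26.9% called lower. Cytosolic genes gave 2 lower calls and 1 higher among 17, and mitochondrial genes 5 lower and none higher among 9. Arrays of the 2 groups did not overlap for 18 of the 26 members, against 72.5% of all genes.

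Without knockdown replicate 1 only 805 genes of the whole table were called, with 1 cytosolic member lower and no other call among members, and without knockdown replicate 2 there were 1272, with 1 cytosolic and 1 mitochondrial member lower. Each of these fits leaves 1 knockdown array, which is assumed to vary like the GFP pair. Without GFP replicate 1 there were 4528 calls and without GFP replicate 2 3551. Scaling to a common median, in place of quantiles, moved the median of all genes to -0.53 and the share of calls that were higher to 17.3%, against 57.3% in the main setting. Under that scaling 7 cytosolic and 6 mitochondrial members were called lower and none higher. Scaling to a common median over kept probes left the median of all genes at -0.02 and 54.3% of calls higher, with 1 cytosolic member higher and 3 lower and 1 mitochondrial member higher and 4 lower.

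Dars had the largest change among the members. On the normalized log2 scale it read 8.33 and 8.45 on the Oct4 knockdown arrays against 10.29 and 9.84 on the GFP arrays, and deposited intensities were 160.0 and 171 against 2101 and 1171. It was 3.19-fold lower (log2 fold change -1.68 ± 0.20 SE, limma adjusted p = 0.00276). Its probe is annotated to another RefSeq accession of Dars than the 2 kept probes of the Wdr5 platform, where a probe for that accession was not above background on any array. Farsb was 1.37-fold lower with limma adjusted p = 0.0479, a call lost without any 1 of the 4 arrays (log2 fold changes -0.41 to -0.53).

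Wars was the 1 member called higher: it read 10.67 and 10.48 on the Oct4 knockdown arrays against 9.95 and 9.74 on the GFP arrays. It was 1.66-fold higher (log2 fold change 0.73 ± 0.16 SE, limma adjusted p = 0.0168). Without knockdown replicate 1 its log2 fold change was 0.64 and without replicate 2 0.84, neither of them called, and it was 0.05, also not called, when arrays were scaled to a common median, against a median of -0.53 over all genes under that scaling. A second Wars probe went the other way, at 7.13 and 6.70 against 8.04 and 7.98, and was called lower at -1.09. The mean of both was -0.18.

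The mitochondrial calls were all lower. Vars2 read 7.76 and 7.87 on the Oct4 knockdown arrays against 8.94 and 8.95 on the GFP arrays and was 2.19-fold lower (limma adjusted p = 0.00312). Fars2, for phenylalanine, read 8.66 and 8.67 against 9.54 and 9.62 and was 1.89-fold lower (limma adjusted p = 0.00522). In both genes the replicates lay close together and the groups far apart.

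Ears2, for glutamate, read 7.81 and 7.62 on the Oct4 knockdown arrays against 8.71 and 8.66 on the GFP arrays and was 1.96-fold lower. A second, dim Ears2 probe was called higher (0.75), at 6.85 and 6.86 against 6.33 and 5.89 with both GFP arrays below background. That probe passed the filter only through the knockdown arrays, where it was high, so its call is no support for a higher Ears2 signal. Mars2 (6.73 and 6.71 against 7.21 and 7.45) and Rars2 (8.90 and 9.02 against 9.57 and 9.43) were lower by smaller amounts, 1.52-fold and 1.45-fold, with limma adjusted p-values of 0.0261 and 0.0327. With 1 knockdown array left, none of the 5 mitochondrial genes was called without replicate 1, and only Vars2 was without replicate 2, while the median log2 fold change of the 9 measured mitochondrial genes was -0.49 and -0.60 in these fits, against -0.54 with both arrays. Sars2 had a log2 fold change of 0.84 and missed the threshold (limma adjusted p = 0.0508), with 1 of 2 GFP arrays below background.

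**Figure D4:**
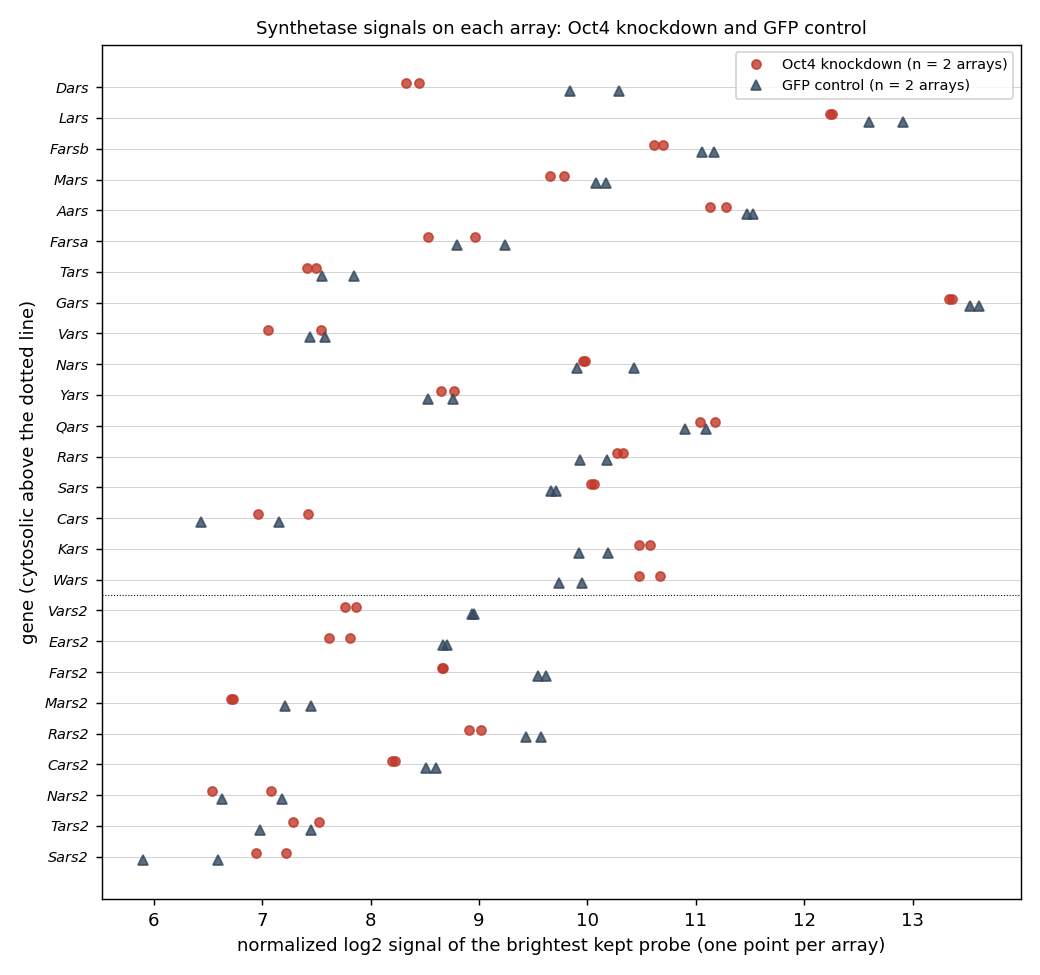
Normalized log2 signal (horizontal axis) of each measured synthetase gene on each Oct4 knockdown array (red circles, n = 2) and GFP control array (dark triangles, n = 2), with cytosolic genes above the dotted line and each block sorted by fold change. Dars stands apart at 8.33 and 8.45 against 9.84 and 10.29, while 8 of the 26 genes have arrays that overlap between the groups.

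The members not called in the Oct4 comparison ranged from Lars at -0.51 to Sars2 at 0.84 on the log2 scale. Kars was at 0.47 by its brightest probe, which was not called, and at -1.98 by a dim second probe, which was called lower. That second probe was above background on the 2 GFP arrays only. It thus passed the filter through the group where it was high, and its call is no support for a lower Kars signal. Of the complex's 6 measured enzymes 1, Dars, was called lower and none higher. This 16.7% called lower lay near the 18.1% of all genes called lower, and 24.3% of all genes were called higher. Of the scaffolds Eef1e1 was called lower (-0.79) while Aimp1 (-0.29) and Aimp2 (0.03) were not called. None of the 7 measured pairs of cytosolic and mitochondrial genes had both members called. In the authors' deposited table the brightest probes of Dars, Vars2 and Wars had log2 fold changes of -0.96, -0.47 and 0.48.

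The other lists are set beside 24.3% higher and 18.1% lower calls among all genes of the Oct4 comparison. Among other genes of tRNA charging 3 of 6 were called lower and none higher, among them Aarsd1 (-0.97) and Gatb (-0.70). Of 16 measured genes of tRNA supply and delivery 1 was called higher, Gtf3c1 at 0.87, and 5 lower, among them Tsfm (-1.02), a mitochondrial elongation factor, Gtf3c2 (-0.85) and Elac2 (-0.83), which trims the 3′ ends of tRNAs. Gtf3c6, called higher in the Wdr5 comparison, was also among those called lower (-0.80). The amino acid response gave 2 higher and 4 lower calls among 12 measured genes. Chac1 (-2.08) and Nupr1 (-1.58) were lower, and Ddit3 (1.57), which encodes the stress factor CHOP, and Ppp1r15a (1.98), whose product helps to dephosphorylate eIF2, were higher.

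The question whether the knockdowns differ in their synthetase genes was put to all 9 arrays in one fit, with the difference of the 2 fold changes as the contrast. This fit gives all groups a shared estimate of each gene's spread. The SE of a difference can thus lie below that of the Oct4 fold change alone. It was 0.11 against 0.14 for Sars and 0.12 against 0.14 for Fars2, while for Farsa both were 0.23. Differences can therefore look firmer here than in the separate fits. Platform, probes and cell line differ with the comparison, so that what part each has in a difference cannot be told apart. Of the 23 members measured in both comparisons 11 differed (limma adjusted p under 0.05), beside 56.8% of the 6170 shared genes. No member was called in opposite directions. Dars, Ears2, Fars2, Rars2 and Vars2 were called lower in both comparisons and Wars was called higher in both, by its brightest probe.

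Farsa gave the largest difference: its log2 fold change was 1.50 in the Wdr5 comparison and -0.27 in the Oct4 comparison, where it was not called, a difference of 1.77 ± 0.23 SE (limma adjusted p = 0.000305). A second kept Farsa probe of the Oct4 platform was called lower, at -0.86 (limma adjusted p = 0.0119, above background on 3 of 4 arrays). Of the complex, Qars (-0.83 and 0.11), Kars (-0.38 and 0.47) and Mars (-0.83 and -0.41) had lower fold changes in the Wdr5 comparison, as did Sars (-0.55 and 0.36) outside it. In Mars2, Ears2 and Fars2 the Oct4 comparison had the lower value. With the mean of kept probes in place of the brightest one, the differences of Vars (0.02), Tars (0.36), Farsb (0.22) and Ears2 (-0.35) were not called, and that of Kars turned to 0.38. In the Oct4 comparison the Kars mean includes its dim second probe, which was below background on both knockdown arrays. The Ears2 mean there likewise includes a dim second probe, below background on both GFP arrays. In the Wdr5 comparison the Vars mean includes its dimmest probe, below background on every knockdown array. Dars, at -1.25 and -1.68, was not shown to differ (difference 0.42 ± 0.19 SE, limma adjusted p = 0.0857).

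**Figure D5:**
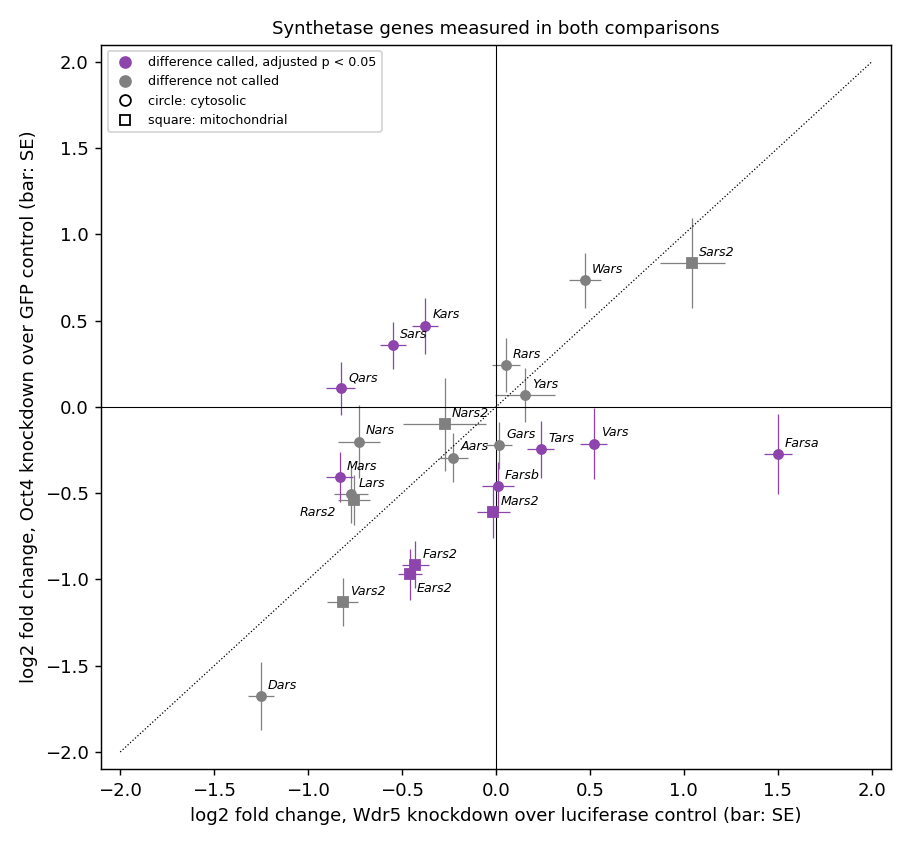
Log2 fold change in the Wdr5 comparison (horizontal axis) against that in the Oct4 comparison (vertical axis) for the 23 synthetase genes measured in both, with SE bars, circles for cytosolic and squares for mitochondrial genes. The dotted line marks equal fold changes, the 11 genes whose difference was called are purple, and Farsa lies farthest from the line, at 1.50 and -0.27.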

How the data were processed

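The authors deposited probe intensities not normalized between arrays, each with a detection score, a fraction near 1 for bright probes, per the file headers. They also deposited normalized log2 values and tables of log2 fold changes with p-values. The submitters' processing notes name limma, with no version, and the authors' normalization and scanner software are not given in the sources used. For the Wdr5 set the deposited log2 values could not be joined to genes, so they served for array medians only.

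Intensities were processed with limma 3.58.1 in R 4.3.3: normal-exponential background correction from the detection scores, an offset of 16, quantile normalization within each comparison and log2. Quantile normalization makes fold changes relative to the other genes, and the offset pulls those of dim probes towards 0. Probes with a score above 0.95 on at least 2 arrays were kept, and the brightest kept probe stood for its gene. Probes were named by RefSeq accession (24202 in the Wdr5 set, 25596 in the Oct4 set), otherwise by the table's symbol or a unique synonym. Each comparison was fitted with lmFit and eBayes, group as the only term, two-sided, with Benjamini-Hochberg adjustment over all genes tested. Calls of second and further probes came from a separate fit of the same form over all kept probes (13529 in the Wdr5 set, 11324 in the Oct4 set). Near the threshold the fits can part: in the Oct4 set limma adjusted p was 0.0479 by gene and 0.0510 by probe for Farsb. For Sars2 it was 0.0508 by gene and 0.0496 by probe. The steps were tested on simulated data. The number of arrays limits precision.

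Members and lists were chosen with earlier results of these data known. Values on each array are given for up to 10 called members of largest absolute fold change per comparison and for members whose probes were called in opposite directions; of the other lists, all scaffolds and up to 4 called genes each, of which 1 is not reported here. Alternatives were another scaling, an offset of 50, no filter, the mean of kept probes, a trended variance, the deposited log2 values, replicate numbers as a block and leaving out each array. Deviations of equal replicate numbers correlated at -0.03 and -0.01 in the Wdr5 set, so these numbers did not pair those samples. In the Oct4 set they correlated at -0.36, a single value since each group has 2 arrays. Crossed numbers there correlate at the same size with the sign turned. Arrays with crossed numbers may thus share structure, for which the main fit has no term, and its source was not tested.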

Additional observations from a re-analysis of the deposited data

Results flagged for a closer look

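For 11 synthetase genes the fold change after Wdr5 knockdown differed from that after Oct4 knockdown by the test of the difference itself (limma, all 9 arrays, adjusted p under 0.05). Of these 7 had the higher log2 fold change after Wdr5 knockdown: Farsa by 1.77, Vars by 0.73, Mars2 by 0.59, Ears2 by 0.51, Fars2 by 0.49, Tars by 0.48 and Farsb by 0.47. The other 4 had the lower one after Wdr5 knockdown, with differences of -0.93 for Qars, -0.91 for Sars, -0.85 for Kars and -0.43 for Mars. Under 14 alternatives, of which the mean of kept probes and scaling over kept probes were chosen after seeing the data, the differences of Farsa, Mars2 and Fars2 were called with the same sign in all 14. Those of Vars, Ears2, Farsb, Qars and Sars were in 13, that of Kars in 12 and those of Mars and Tars in 10. With the mean of kept probes Vars had a difference of 0.02, Ears2 of -0.35 and Farsb of 0.22, none of them called, and Kars one of 0.38, called with the sign turned. The means of Vars, Ears2 and Kars each include a dim probe above background only in the group where it was high. All groups shared an estimate of each gene's spread in these fits.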

How the results depend on the processing

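In the Wdr5 comparison the counts of members stayed within 1.5 times the main count under every alternative run except for cytosolic genes called higher, which numbered 1 with the mean of the kept probes. Over 12 alternatives 338 of 360 member values kept their side of the threshold (15 of them with the sign turned, all of genes not called), and 18 of the 23 called genes kept call and direction in all of them. With the mean of kept probes the sign turned for Farsb (-0.24), Rars (-0.35), Vars (-0.19) and Wars (-0.46), and in the Oct4 comparison for Kars (-0.76) and Wars (-0.18), by construction, since their probes disagree. The Oct4 counts moved more, and 1 of 8 called genes kept its call under all 13 alternatives. Cytosolic genes called higher and lower numbered 0 and 7 with a common median, 2 and 4 with an offset of 50, 3 and 5 with a trended variance and 3 and 5 on the deposited log2 values. Those called higher numbered 2 without a filter and 0 with the mean of kept probes. Mitochondrial genes called higher numbered 1 with the offset of 50, the trended variance and scaling to a common median over kept probes, an alternative chosen after seeing the data. With the replicate number as a block 1 cytosolic gene was lower, 1 mitochondrial gene higher and 3 lower. With crossed numbers as a block, also chosen after seeing the data, 4720 genes were called, with 1 and 3 cytosolic and 1 and 5 mitochondrial members higher and lower. Leaving out 1 array gave 805 to 4528 called genes in the Oct4 comparison, with 0 to 2 cytosolic members higher and 1 to 2 lower, and 0 to 1 mitochondrial members higher and 0 to 5 lower. The cause was not tested. Members that differed between the knockdowns numbered 9 to 15. The Wdr5 comparison could not be run on the deposited log2 values. Dim probes near background limit what can be said of Yars, Lars2 and Nars2.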
